A study of Homo sapiens with 17 samples.

Results

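The genes examined here are 10 members and targets of the WNT pathway: FZD5, FZD7, TCF7, TCF7L1, TCF7L2, LEF1, AXIN2, NKD1, DKK1 and SP5. They were taken by name from the 20037 protein-coding genes of the RefSeq table for GRCh38.p14. Every summit from 20 kb before to 20 kb behind each gene was collected from all 17 deposited lists of single libraries. A summit is the base of highest signal in a called peak. Each summit is given by its percentile, the share of summits of the same list that rank behind it by score, and a gene with no summit in its window is listed at 0.

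CUT&Tag, in which an antibody on chromatin guides a transposase to cut and tag the DNA next to it, was done in H1 cells, an established line of human embryonic stem cells. HNRNPU was targeted with either of 2 shRNAs, shHNRNPU#1 and shHNRNPU#2, and control cells received one aimed at luciferase (shLUC). All shRNAs were delivered by virus and the cells selected with puromycin, so that virus and selection were common to both conditions. H3K4me1, a histone mark of enhancers, and H3K27ac, a mark of active enhancers and promoters, were each profiled in 2 repeats per shRNA (4 shHNRNPU and 2 shLUC libraries). The antibody that the labels call POLIIS2P was used in 1 shHNRNPU#1 and 2 shLUC libraries, and HNRNPU, an RNA-binding protein of the nucleus, in 2 libraries of untransfected cells. No source used here states whether repeats came from separate cultures, so p-values measure only the spread between these libraries, and the assays do not measure how far HNRNPU was depleted.

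In the canonical WNT pathway a WNT ligand binds a Frizzled receptor and its co-receptor, β-catenin escapes degradation, enters the nucleus and joins DNA-bound factors of the TCF/LEF family. Some targets act back on the pathway: AXIN2 and NKD1 restrain it inside the cell, and DKK1 is secreted and blocks the co-receptor. In pluripotent cells the pathway takes part in the choice between self-renewal and differentiation into mesoderm and endoderm, and TCF7L1 acts there largely as a repressor.

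The promoters that carry the sequence recognised by TCF/LEF factors, and those whose window holds a summit of an HNRNPU site found in both repeats, are shown first. The RefSeq promoter table for GRCh38.p14 (250 bases before to 50 after a listed start) held 10 windows for 7 of the 10 genes. The letters searched were CTTTGA or its reverse complement TCAAAG, and the longer CTTTGAT or ATCAAAG, which contains the shorter form; matches to the shorter form are in capitals.
SP5 promoter, chr2:170715087-170715386, plus strand: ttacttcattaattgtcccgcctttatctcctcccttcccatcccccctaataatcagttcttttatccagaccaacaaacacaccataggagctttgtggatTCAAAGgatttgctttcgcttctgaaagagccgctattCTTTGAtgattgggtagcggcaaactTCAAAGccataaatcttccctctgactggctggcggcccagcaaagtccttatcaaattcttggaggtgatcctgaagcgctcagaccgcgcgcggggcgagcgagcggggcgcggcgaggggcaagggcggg
DKK1 promoter, chr10:52314031-52314330, plus strand: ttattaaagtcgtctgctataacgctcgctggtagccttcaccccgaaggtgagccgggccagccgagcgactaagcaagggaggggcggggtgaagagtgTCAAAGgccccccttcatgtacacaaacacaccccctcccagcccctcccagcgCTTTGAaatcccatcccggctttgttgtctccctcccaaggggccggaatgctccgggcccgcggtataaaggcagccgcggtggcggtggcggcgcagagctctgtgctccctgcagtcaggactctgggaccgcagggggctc
FZD5 promoter, chr2:207769857-207770156, minus strand: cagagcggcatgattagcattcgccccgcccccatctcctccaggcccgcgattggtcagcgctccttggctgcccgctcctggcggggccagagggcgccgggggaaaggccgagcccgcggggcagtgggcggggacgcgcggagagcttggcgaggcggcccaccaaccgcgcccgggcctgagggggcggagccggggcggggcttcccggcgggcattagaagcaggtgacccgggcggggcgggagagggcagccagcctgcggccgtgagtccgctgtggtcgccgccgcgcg
TCF7L1 promoter, chr2:85133142-85133441, plus strand: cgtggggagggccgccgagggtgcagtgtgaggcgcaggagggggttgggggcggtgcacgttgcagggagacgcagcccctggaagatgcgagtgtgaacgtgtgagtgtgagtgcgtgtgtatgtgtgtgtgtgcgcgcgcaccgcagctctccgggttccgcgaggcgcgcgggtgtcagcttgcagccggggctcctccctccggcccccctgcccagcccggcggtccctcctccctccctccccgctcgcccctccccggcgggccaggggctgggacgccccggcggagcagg
The SP5 promoter held the 6-letter form 3 times, at -147, -109 and -83 from the listed start, and the match at -109 was also the 7-letter form. DKK1 held the 6-letter form at -149 and -95 and lacked the longer form. No match lay in the other 8 windows of FZD5, TCF7, TCF7L1, TCF7L2 and LEF1. Of all 35116 promoter windows in the table, 12.9% held the 6-letter form, 2.62% the 7-letter form and 0.0997% at least 3 matches to the 6-letter form. These matches are letters in a window and no record of binding. At 3 more promoters an HNRNPU site of both repeats lay near a listed start but outside the window, 89 bp from a start of TCF7L2, 251 bp from that of DKK1 and 297 bp from that of LEF1.

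A conflict in the labels touches every histone comparison: in the 4 shLUC lists of H3K4me1 and H3K27ac, peaks are named for the opposite antibody of the sample's title. The peak names were followed here, and each comparison of a histone mark with shLUC was repeated by title. The primary antibodies listed in the labels' protocol include neither H3K4me1 nor POLIIS2P. Lists held 147145 to 214333 summits for H3K4me1, 40487 to 90914 for H3K27ac, 79949 to 87456 for POLIIS2P and 34649 or 35526 for HNRNPU, and the read depth behind them is unknown. Percentiles were not centred between lists. The median gene's highest H3K27ac percentile was 78.8 and 86.4 in shLUC. It was 73.7 and 67.0 in shHNRNPU#1 and 82.2 and 83.9 in shHNRNPU#2. Of 11 pluripotency markers examined, all had an H3K27ac summit in both shLUC lists and 9 in all 4 shHNRNPU lists, and their median percentile was 85.9 to 95.9 over the 6 H3K27ac lists. The H3K27ac medians of other cell types were 19.8 and 23.6 in shLUC and 0 to 38.2 in shHNRNPU for 4 neural markers, 0 in both shLUC lists and 0 to 26.6 in shHNRNPU for 5 mesendoderm markers, 0 in both and 0 to 2.36 for 4 trophoblast markers, and 25.1 and 48.1 in shLUC and 10.4 to 52.4 in shHNRNPU for 4 fibroblast markers. The part of these cell types in the comparisons was not tested.

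H3K4me1 was found at every one of the 10 genes in all 6 lists, as it was at 87.5% of all protein-coding genes. H3K27ac was absent from DKK1 and SP5 in all 6 lists, a state shared with 7.31% of all genes (1.57% with H3K4me1 in all 6 lists as well), and was found at the other 8 genes in at least 4 lists. Windows ran from 42.7 kb at SP5 to 257.4 kb at TCF7L2, and a longer window holds more summits from which the highest is taken. Neighbouring protein-coding genes reach into the windows of FZD5 (CCNYL1), TCF7 (VDAC1 and SKP1), TCF7L1 (TGOLN2), LEF1 (HADH and LOC124900752), NKD1 (SNX20) and DKK1 (PRKG1). Per 100 kb of window, H3K4me1 lists held 23.5 to 30.9 summits at TCF7L1 and 23.3 to 31.9 at TCF7L2. At the lower end were LEF1 with 9.91 to 13.6 and DKK1 with 2.31 to 9.22 H3K4me1 summits per 100 kb. SP5, with 11.7 to 25.7, overlapped the range of TCF7L1.

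**Figure D1:**
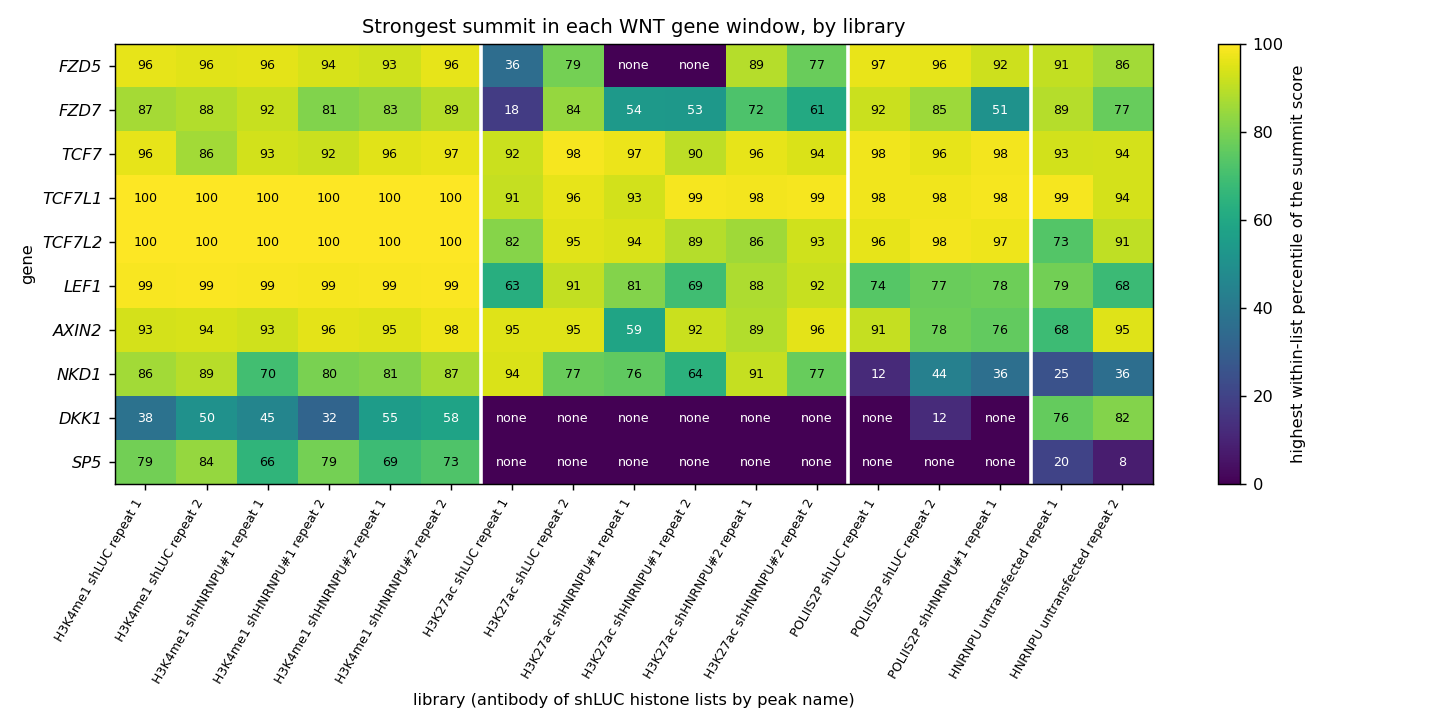
Highest within-list percentile of a summit in the window of each gene (rows) in each of the 17 libraries (columns), with white lines between antibodies; "none" stands for a window without a summit, coloured as 0. TCF7L1 and TCF7L2 exceed 99.8 in all 6 H3K4me1 lists, while DKK1 and SP5 have no H3K27ac summit.

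By the highest H3K4me1 percentile the genes fell into an order that was much the same in each library. TCF7L1 (99.89 to 99.99) and TCF7L2 (99.81 to 99.97) overlapped at the top and lay above LEF1 (98.78 to 99.33). FZD5 (92.8 to 96.4), AXIN2 (92.6 to 97.6) and TCF7 (86.0 to 96.8) overlapped one another and lay below LEF1 in all 6 lists. FZD7 (81.2 to 91.7), NKD1 (69.7 to 89.2) and SP5 (65.6 to 84.1) overlapped as well. The range of TCF7 reached into those of FZD7 and NKD1. In shLUC repeat 2 TCF7 stood at 86.0, below FZD7 at 88.5 and NKD1 at 89.2. DKK1 (32.2 to 58.0) was below all other 9 genes in every list.

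The receptors were considered first. FZD5, a Frizzled receptor on chr2:207762598-207769906 (minus strand), had its strongest H3K4me1 summit within its body, between bases 207768015 and 207768026, in all 6 lists. The values there were 96.2 and 95.5 in shLUC, 96.1 and 94.0 in shHNRNPU#1 and 92.8 and 96.4 in shHNRNPU#2. The groups overlapped.

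H3K27ac at FZD5 split the 2 shRNAs. Neither shHNRNPU#1 list had a summit in the window, whereas the highest percentiles were 88.8 and 77.3 in shHNRNPU#2 and 35.6 and 79.1 in shLUC. A summit in both shLUC and both shHNRNPU#2 lists with none in either shHNRNPU#1 list occurred at 1.97% of all genes, and the pattern was picked out after the values were seen. The shHNRNPU#1 lists were also the shortest of the 6 H3K27ac lists, with 40487 and 51655 summits against 62449 to 90914 in the other lists, and the part of list length in this pattern was not tested. The strongest H3K27ac summit of FZD5 lay within 1 kb of its start in both shLUC lists and in shHNRNPU#2 repeat 1. In shHNRNPU#2 repeat 2 it was in the gene body, at base 207767228. Both shHNRNPU#2 lists and shLUC repeat 2 also held H3K27ac summits farther from the start. In the stretch chr2:207769784-207770123, which crosses the start, H3K27ac was listed in 4 of 6, POLIIS2P in 3 of 3 and HNRNPU in 2 of 2 libraries. The HNRNPU summit of repeat 1 (percentile 90.7) fell 1 base from the listed start, at the same base as the POLIIS2P summits of shHNRNPU#1 and of shLUC repeat 2, inside the promoter printed above. The HNRNPU summit of repeat 2 (percentile 86.0) was at base 207769791.

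FZD7, a further Frizzled receptor, lies on chr2:202033855-202038441 with no other protein-coding gene in its window. Its highest H3K27ac percentiles were 17.7 and 84.1 in shLUC, 53.7 and 53.2 in shHNRNPU#1 and 72.1 and 60.8 in shHNRNPU#2. The 4 shHNRNPU values thus all lay between the 2 shLUC values. Its H3K4me1 values were 86.7 and 88.5 in shLUC and 81.2 to 91.7 in shHNRNPU, again overlapping. HNRNPU summits of the 2 repeats stood at 88.8 and 76.9, but no pair of them lay within 250 bp.

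**Figure D2:**
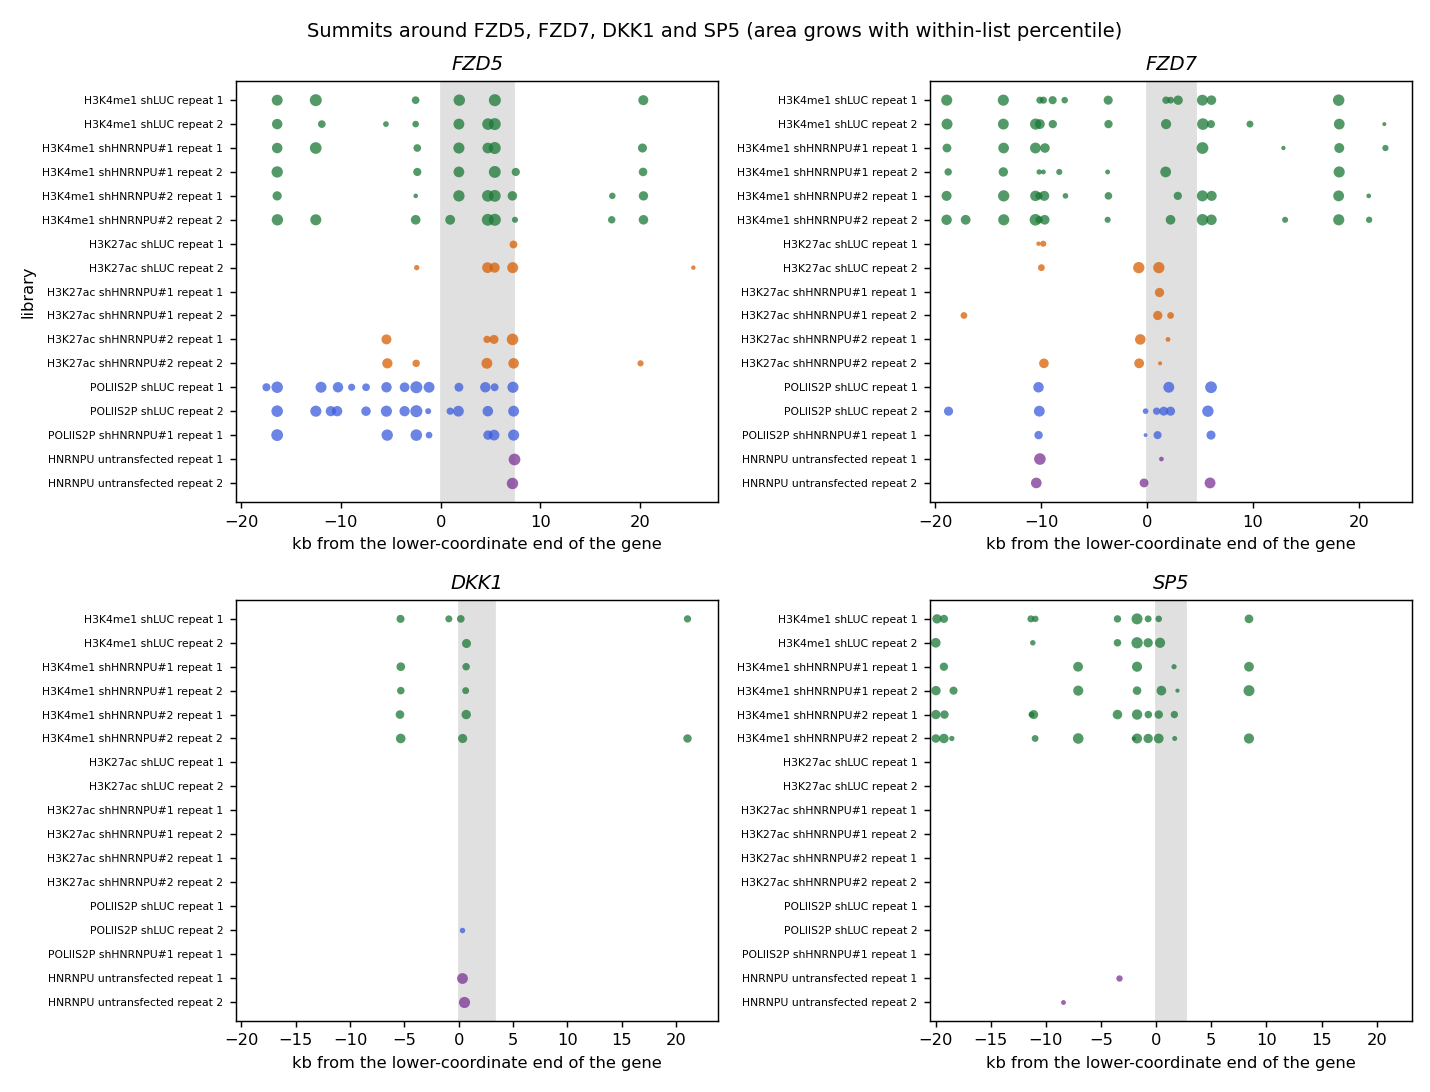
Position of every summit in the windows of FZD5, FZD7, DKK1 and SP5, in kb from the lower-coordinate end of the gene (x axis), for the 17 libraries (y axis), with dot area growing with the percentile and the gene body in grey. Dots are green for H3K4me1, orange for H3K27ac, blue for POLIIS2P and purple for HNRNPU; SP5 shows no orange and no blue dots.

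Among the nuclear factors, TCF7 and LEF1 activate targets with β-catenin, and TCF7L1 and TCF7L2 belong to the same family. TCF7 lies on chr5:134108218-134148210 (plus strand). A stretch inside it at chr5:134140710-134141127 was among the 3 stretches around the 10 genes with a summit in all 17 lists, a count not made over the genome. The median percentile there was 94.4 for H3K4me1, 95.4 for H3K27ac, 97.9 for POLIIS2P and 62.9 for HNRNPU. TCF7 H3K27ac reached 92.0 and 98.4 in shLUC and 90.2 to 97.2 in the 4 shHNRNPU libraries, so the groups overlapped. The strongest HNRNPU summit of repeat 1, at base 134114570, lay within 1 kb of an end of VDAC1, so that it belongs to both genes' surroundings.

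TCF7L1, on chr2:85133392-85310387 (plus strand), held the strongest H3K4me1 summits of the 10 genes, in a stretch of its body at chr2:85285579-85285692. By rank within the list, where 1 is the strongest summit, it was summit 16 and 48 in shLUC, 29 and 77 in shHNRNPU#1 and 194 and 64 in shHNRNPU#2. The shHNRNPU ranks were mostly later than those in shLUC, with 29 lying between the 2 shLUC ranks. H3K27ac at TCF7L1 went the other way. Its best rank was 5580 and 3457 in shLUC, 3572 and 530 in shHNRNPU#1 and 1221 and 1139 in shHNRNPU#2. Of the 4 shHNRNPU libraries 3 were thus ahead of both shLUC libraries, and shHNRNPU#1 repeat 1 lay between them. In those 3 libraries the strongest H3K27ac summit was in the same stretch as H3K4me1, at percentiles of 98.4 to 98.7, where shLUC had summits at 89.7 and 93.8 and shHNRNPU#1 repeat 1 had none. The other stretches with all 17 lists were both at TCF7L1. One, chr2:85132958-85133225, overlaps the TCF7L1 promoter printed above and had a median HNRNPU percentile of 95.3, and the other was at chr2:85237923-85238189.

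TCF7L2 (chr10:112950247-113167678, plus strand) carried its strongest H3K4me1, POLIIS2P and HNRNPU summits in a single stretch of its body, chr10:113108559-113108667. Both HNRNPU repeats had the summit at base 113108611, at percentiles of 73.2 and 90.6. The median there was 99.88 for H3K4me1 and 97.4 for POLIIS2P, while H3K27ac was listed in 3 of 6 libraries. The highest H3K27ac percentile of the whole window was 81.7 and 95.4 in shLUC and 85.8 to 94.4 in shHNRNPU, the latter all between the former. Near the second listed start of TCF7L2, HNRNPU summits of the 2 repeats lay at bases 113126722 and 113126854 (percentiles 47.8 and 58.5), and within 500 bp H3K4me1 was listed in 6 of 6, H3K27ac in 2 of 6 and POLIIS2P in 3 of 3 libraries.

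LEF1 (chr4:108047548-108168932, minus strand) had its main stretch at chr4:108135416-108135773, in the gene body. H3K4me1 and H3K27ac were listed there in 6 of 6 libraries, at median percentiles of 99.2 and 84.5, and HNRNPU in both repeats. Next to the listed LEF1 promoter, at chr4:108166565-108166649, H3K4me1 (median 93.0) and HNRNPU were again listed in all their libraries, and H3K27ac in none. The strongest POLIIS2P summits of the LEF1 window lay in the body of the neighbouring gene HADH in all 3 libraries.

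**Figure D3:**
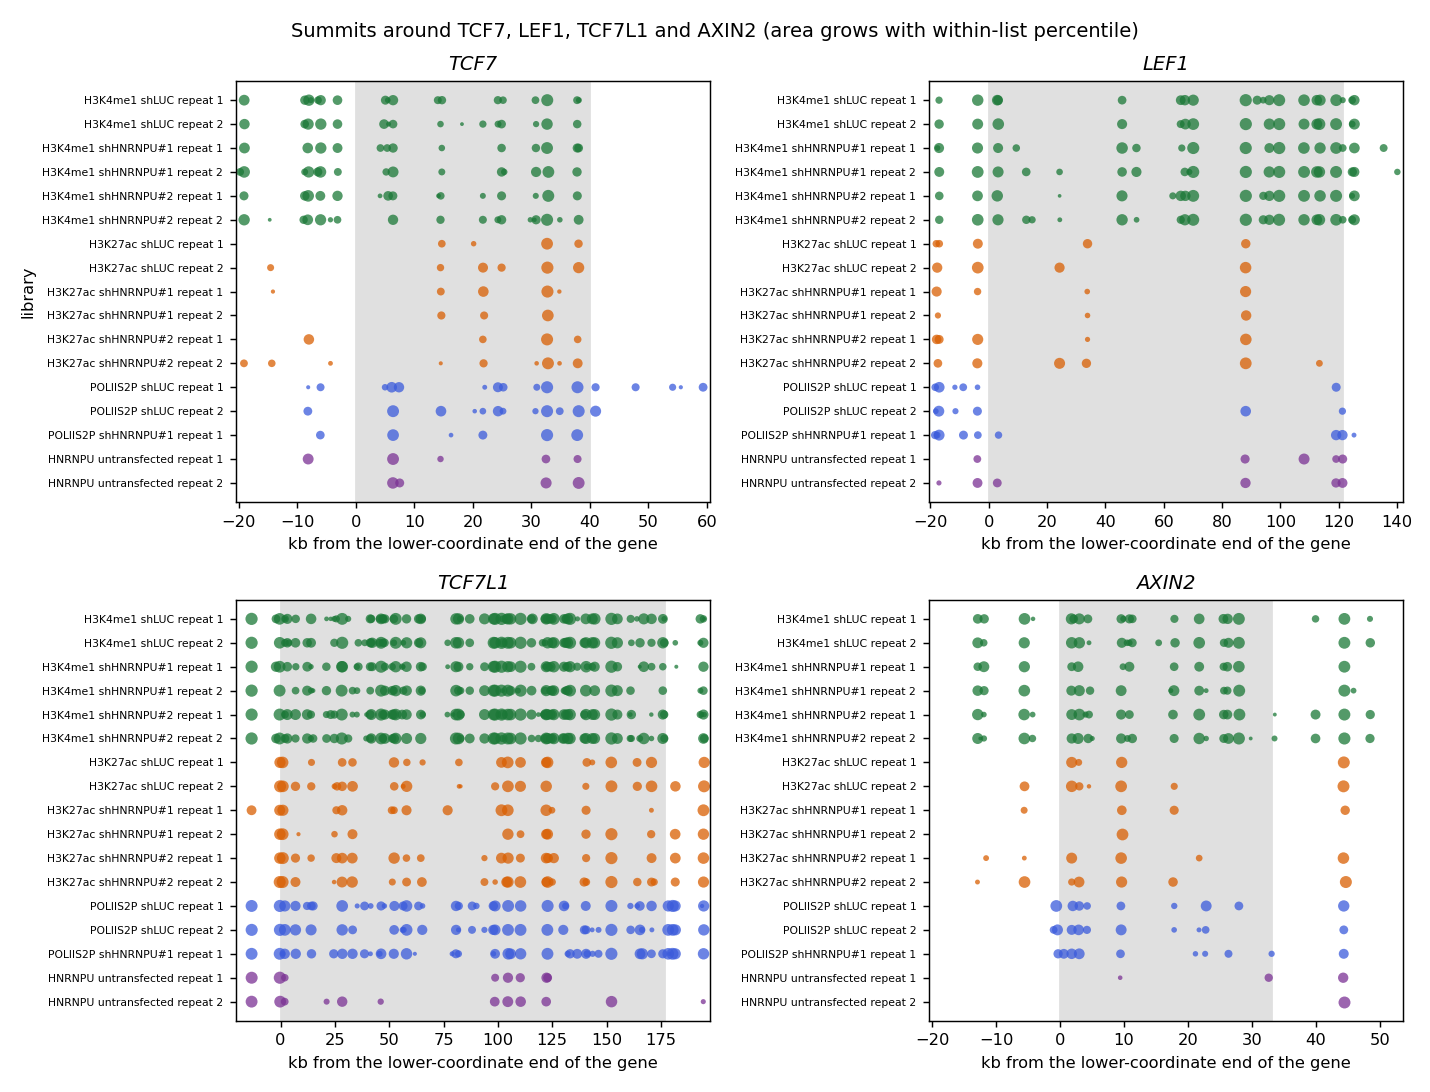
Position of every summit in the windows of TCF7, LEF1, TCF7L1 and AXIN2, drawn as for the short genes: kb from the lower-coordinate end of the gene on the x axis, the 17 libraries on the y axis, dot area growing with the percentile, the gene body in grey, green for H3K4me1, orange for H3K27ac, blue for POLIIS2P and purple for HNRNPU. Columns of dots through all libraries mark the stretches with all 17 lists, at 32.7 kb in TCF7 and at -0.30 and 104.66 kb in TCF7L1.

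Of the inhibitors, AXIN2, a scaffold of the complex that degrades β-catenin, lies on chr17:65528563-65561648. Its strongest HNRNPU summits were outside the gene, at chr17:65572843-65573262, and reached 68.5 and 95.05 in the 2 repeats. All 6 H3K4me1 lists had a summit there at the same base, 65573031, at percentiles of 92.1 and 93.5 in shLUC and 92.6 to 97.6 in shHNRNPU. H3K27ac was listed in the stretch in 5 of 6 libraries and was missing from shHNRNPU#1 repeat 2. Over the whole AXIN2 window H3K27ac reached 95.2 and 94.99 in shLUC, 58.6 and 91.8 in shHNRNPU#1 and 88.7 and 95.9 in shHNRNPU#2. Of the 4 shHNRNPU values 3 were below both shLUC values and 1 was above them.

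NKD1, which binds Dishevelled, lies on chr16:50548396-50649249. H3K4me1 there reached 86.0 and 89.2 in shLUC, 69.7 and 80.0 in shHNRNPU#1 and 81.3 and 87.0 in shHNRNPU#2. All shHNRNPU values but that of shHNRNPU#2 repeat 2 were below both shLUC values, and that value fell between them. Its strongest H3K27ac summit lay in a stretch of the body at chr16:50579869-50579992 in all 6 lists, where H3K4me1 was listed in 1. NKD1 had neither an HNRNPU site of both repeats nor a POLIIS2P summit above a percentile of 43.6.

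DKK1, the secreted inhibitor, lies on chr10:52314281-52317657 (plus strand). HNRNPU was found at its start in both repeats, at bases 52314532 and 52314720 and percentiles of 76.3 and 81.5, the first 251 bases behind the listed start. In that stretch, chr10:52314464-52314965, H3K4me1 was listed in 6 of 6 libraries at a median percentile of 41.9, and POLIIS2P in shLUC repeat 2 alone, at 12.4. Over all genes, the median highest HNRNPU percentile was 75.85 in repeat 1 and 75.03 in repeat 2. HNRNPU at DKK1 was thus close to the median gene in repeat 1 and above it in repeat 2. For H3K4me1 the median gene stood at 85.9 to 90.4 over the 6 lists, above DKK1 in each. H3K27ac was absent from the DKK1 window. H3K4me1 over the DKK1 window reached 37.9 and 50.4 in shLUC and 32.2 to 58.0 in shHNRNPU, and the groups overlapped.

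SP5, a zinc-finger factor induced by WNT signals, lies on chr2:170715337-170718078 (plus strand) with no other protein-coding gene in its window. A summit of H3K4me1 was listed between bases 170713600 and 170713604 in all 6 libraries, at -1.74 kb from the start. Its percentile was 78.6 and 84.1 in shLUC, 65.6 and 44.1 in shHNRNPU#1 and 68.7 and 63.8 in shHNRNPU#2. At this position all 4 shHNRNPU values were below both shLUC values, a position picked out after the values were seen and so given with no test. Over the whole window the SP5 groups overlapped, since shHNRNPU#1 repeat 2 reached 79.0 at another summit. SP5 was the sole member of the 10 with H3K4me1 in all 6 lists and neither H3K27ac nor POLIIS2P in any, a state of 0.634% of all genes, and its HNRNPU summits stood at percentiles of 20.0 and 7.82.

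To ask whether depletion of HNRNPU went with a change of the marks at these genes, the strongest summits were compared between 4 shHNRNPU and 2 shLUC libraries. None of the 10 genes had all 4 shHNRNPU percentiles above or all 4 below both shLUC percentiles for H3K4me1, where 6.69% and 7.71% of all genes did, or for H3K27ac, where 1.93% and 10.5% did. These counts use percentiles not centred between lists, and the counts of 0 depended on single libraries. For H3K27ac, FZD7, TCF7L1, TCF7L2 and LEF1 were above and NKD1 was below the remaining shLUC library without shLUC repeat 2, as were 12.8% and 18.1% of all genes. Without shLUC repeat 1, FZD7, TCF7 and TCF7L2 were instead below it, as were 33.6%, so that FZD7 and TCF7L2 changed sides with the library left out. For H3K4me1 without shLUC repeat 1, NKD1 and SP5 were below and TCF7 and TCF7L2 above, as were 18.9% and 16.5%. The exact permutation p over the 15 assignments (two-sided) was between 0.2 and 0.8 for H3K4me1. For H3K27ac it was between 0.333 and 0.867 at the genes with a summit. DKK1 and SP5 had no H3K27ac summit in any list, so their outcome was fixed. The smallest p the design allows is 0.0667. For a test across all genes, log2 strength was taken as minus log2 of the rank of the strongest summit, centred on the median gene of each library, so that a difference of 1 stands for a rank smaller by a factor of 2.

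In the limma fit with Benjamini-Hochberg adjustment none of the 10 genes passed 0.05 for H3K4me1, and 1 had an unadjusted p under 0.05. Of all 17538 genes tested, 0.0057% were called higher and 0.0171% lower in shHNRNPU, and 1455 had an unadjusted p under 0.05. That gene was TCF7L1, whose H3K4me1 log2 strength was 7.83 in shHNRNPU and 9.26 in shLUC, a difference of -1.43 (SE 0.65, limma adjusted p = 0.596). The 95% intervals of the other 9 genes all included 0. The widest difference among them was 0.90 at TCF7L2, with an interval from -0.29 to 2.09, followed by -0.64 at NKD1 (-1.61 to 0.34), 0.59 at AXIN2 (-0.42 to 1.60) and -0.56 at SP5 (-1.56 to 0.44).

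For H3K27ac 7 of the 10 genes had a summit in all 6 lists and could be fitted, and none passed 0.05 in limma after Benjamini-Hochberg adjustment. Of all 13970 genes tested, 0% were called higher and 0.00716% lower, and 875 had an unadjusted p under 0.05. TCF7L1 alone of the 7 had an unadjusted p under 0.05, with a log2 strength of 2.57 in shHNRNPU and 0.73 in shLUC, a difference of 1.84 (SE 0.76, limma adjusted p = 0.73). The sign at TCF7L1 was thus negative for H3K4me1 and positive for H3K27ac, and neither passed the adjusted threshold. The other 6 genes ran from -0.82 at AXIN2 (interval -2.42 to 0.79) to 0.65 at LEF1 (-0.80 to 2.09). With an SE of 0.70 to 0.78 at the 7 genes, an estimated difference of 1 would have had a 95% interval that includes 0 at each of them. The median difference over the fitted members was -0.09 for H3K4me1 and 0.26 for H3K27ac, beside 0.02 and 0.01 over all genes tested.

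With the shLUC antibodies taken from the titles instead, 4 members passed for H3K4me1 and 3 for H3K27ac, among 8486 and 6274 genes called over the genome. TCF7L1 then had differences of 6.71 for H3K4me1 and -6.48 for H3K27ac (limma, adjusted p = 1.51e-07 and 9.36e-07). By the peak names, the fit by title sets each mark in shHNRNPU against the other mark in shLUC. The shLUC lists titled H3K4me1 held 62449 and 90914 summits, beside 147145 to 214333 in the shHNRNPU lists of H3K4me1. Those titled H3K27ac held 179137 and 181357, beside 40487 to 85142 in the shHNRNPU lists of H3K27ac. The comparison of the 2 shRNAs with each other in limma gave none of the 10 members tested for H3K4me1 and the 7 for H3K27ac past 0.05 and none with an unadjusted p under 0.05 (smallest adjusted p of a member 0.657 and 0.744), with 11 and 9 genes called over all genes for H3K4me1 and H3K27ac.

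**Figure D4:**
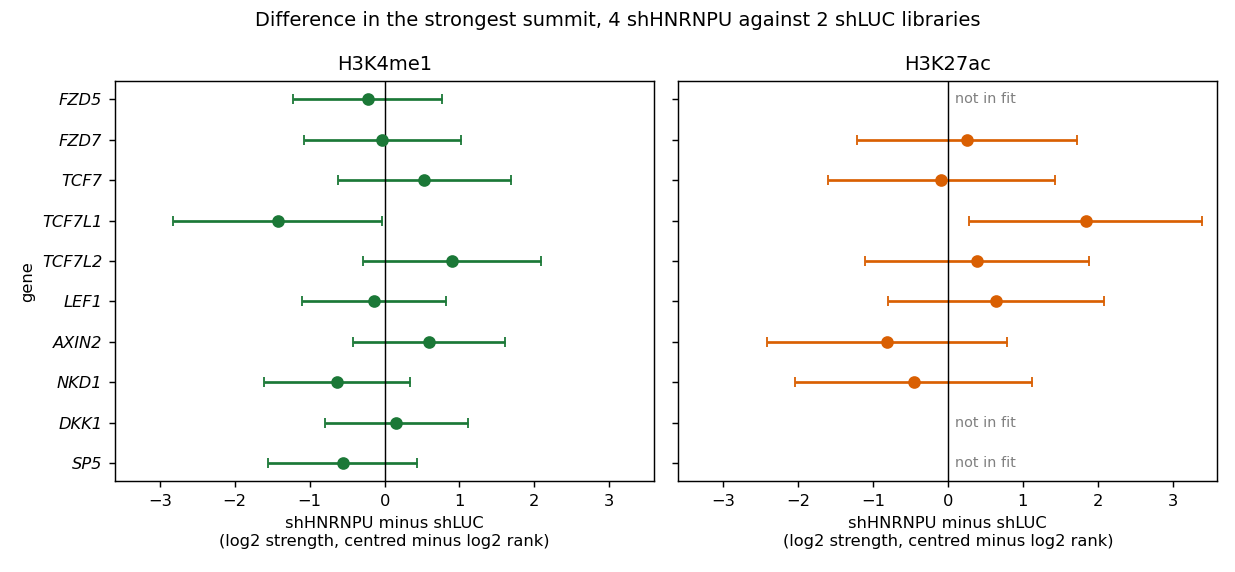
Difference in log2 strength of the strongest summit (x axis, shHNRNPU minus shLUC) for each gene (y axis) in H3K4me1 (left) and H3K27ac (right), with dots for the limma estimate from 4 shHNRNPU and 2 shLUC libraries and bars for its 95% interval. The bars of TCF7L1 are the ones that do not cross 0, at -1.43 and 1.84, and FZD5, DKK1 and SP5 could not be fitted for H3K27ac.

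A wider list of 85 further pathway genes gave the same count. Of these, 84 were fitted for H3K4me1 and 56 for H3K27ac, and none passed in limma after adjustment. For each mark 6 had an unadjusted p under 0.05, beside 1455 of 17538 genes for H3K4me1 and 875 of 13970 for H3K27ac. The difference was positive at 48 of the 84 genes for H3K4me1, with a median of 0.12, and at 32 of the 56 for H3K27ac, with a median of 0.10, where 51.3% and 50.4% of all genes tested were positive. By role, the median H3K4me1 difference was 0.42 over 10 nuclear factors (7 positive), 0.37 over 19 WNT ligands (16 positive), 0.29 over 13 cytoplasmic members (8 positive) and -0.01 over 13 other receptors and co-receptors (6 positive). It was -0.04 over 6 further targets (3 positive), -0.08 over 15 extracellular and membrane inhibitors (5 positive) and -0.33 over 8 agonists and secretion factors (3 positive). The ligands are not independent counts. The mean H3K4me1 strength in shLUC was 0.566 at both WNT1 and WNT10B and 1.557 at both WNT6 and WNT10A, as where windows share a strongest summit. No role was tested as a set. For H3K27ac the medians were 0.32 over 9 nuclear factors (7 positive), 0.24 over 3 further targets (2 positive), 0.22 over 10 inhibitors (7 positive) and 0.14 over 8 ligands (5 positive). They were -0.01 over 13 cytoplasmic members (6 positive), -0.23 over 9 receptors (4 positive) and -0.32 over 4 agonists and secretion factors (1 positive).

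Counted as stretches rather than genes, summits of all lists were joined where they lay within 250 bp, which gave 439 stretches around the 10 genes. H3K4me1 was listed in all 6 libraries at 121 of them, H3K27ac in all 6 at 16 and POLIIS2P in all 3 at 68, while 104 were seen in a single library. The same counts were not made over the genome, so these have no background share. Of 359 stretches with H3K4me1, 3 had it in both shLUC and no shHNRNPU library and 2 in all 4 shHNRNPU and no shLUC library, beside 1.27% and 0.558% over the genome. Of 142 stretches with H3K27ac, 3 had it in shLUC alone and 0 in shHNRNPU alone, beside 1.96% and 0.221%. The shLUC stretches lay at FZD7 and TCF7L1 for H3K4me1 and at TCF7L1 and TCF7L2 for H3K27ac, with median percentiles of 53.95 at most. The shHNRNPU stretches of H3K4me1 lay at TCF7L1 and NKD1.

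POLIIS2P could be compared only as 1 shHNRNPU#1 library beside 2 shLUC libraries, with no test. FZD7 was the single member whose shHNRNPU#1 percentile was at least 10 points below both shLUC values, as 6.74% of all genes were, and none was 10 points above both, as 4.53% were. At FZD7 the highest percentile was 50.8 in shHNRNPU#1 and 92.0 and 85.3 in shLUC, and all 3 summits lay in the stretch chr2:202039608-202039963 behind the gene. At a second FZD7 stretch, chr2:202023304-202024207, POLIIS2P stood at 42.2 in shHNRNPU#1 and at 71.1 and 76.3 in shLUC. Within 1 kb of the lower-coordinate end of FZD7 the order was the opposite. POLIIS2P stood there at 37.85 in shHNRNPU#1 and at 30.32 in shLUC repeat 2, with no summit in shLUC repeat 1. The FZD7 window held 4 POLIIS2P summits in shHNRNPU#1 and 3 and 7 in shLUC. TCF7, TCF7L1 and TCF7L2 stood between 96.2 and 98.5 in all 3 libraries, and TCF7 had its summit at base 134140901 in each of them. AXIN2 was at 75.9 in shHNRNPU#1 and at 91.4 and 77.9 in shLUC, so that it would join FZD7 without shLUC repeat 2, and NKD1 (36.4 beside 12.0 and 43.6) would then be above. Without shLUC repeat 1 DKK1 would join FZD7. The POLIIS2P medians of the other cell types' markers were higher in shHNRNPU#1 than in both shLUC libraries: 76.6 beside 68.0 and 71.4 (neural), 77.6 beside 69.8 and 73.5 (mesendoderm), 35.5 beside 11.3 and 21.2 (trophoblast) and 67.2 beside 55.3 and 56.2 (fibroblast). That of the pluripotency markers was 98.4 beside 98.9 and 99.1, and the part of these in the differences was not tested.

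By the number of POLIIS2P summits, a measure added after the values were seen, 7 members had at least 3 summits in each shLUC library. FZD5 had 7 in shHNRNPU#1 and 14 and 13 in shLUC, and TCF7 had 6 beside 16 and 12. These were the 2 members with at least 1.5-fold fewer, as were 9.83% of 12940 genes. Part of the POLIIS2P summits of the FZD5 window lay in the body of CCNYL1, and with 5 kb flanks FZD5 had 5 beside 7 and 7, less than 1.5-fold. TCF7, with 5 beside 10 and 11, was then the single member of 5 with enough summits that had fewer, beside 13.2% of 9735 genes. LEF1, with 9 beside 6 and 6, was the member with at least 1.5-fold more, as were 2.26% of genes, and with 5 kb flanks it had 5 beside 2 and 3, too few in shLUC repeat 1 to be counted. No member then had 1.5-fold more, beside 3.07% of genes. At the FZD5 promoter itself the POLIIS2P percentile was 81.0 in shHNRNPU#1 and 81.2 and 77.5 in shLUC. SP5 had no POLIIS2P summit in any library, and DKK1 had it in shLUC repeat 2 alone.

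**Figure D5:**
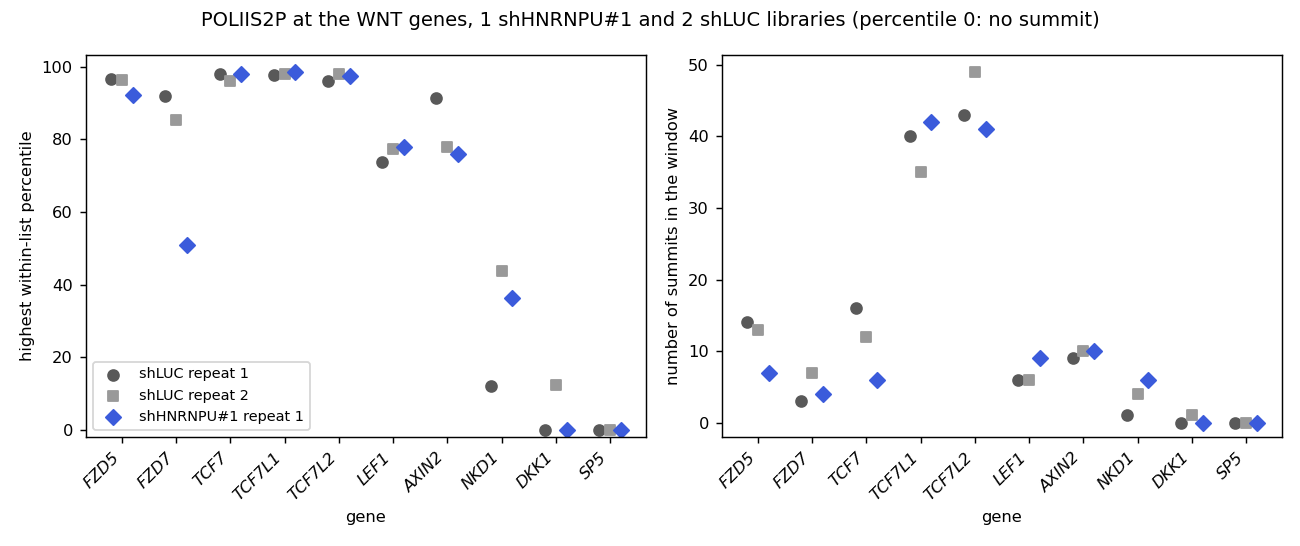
POLIIS2P at the 10 genes in 1 shHNRNPU#1 (blue diamonds) and 2 shLUC libraries (grey circles and squares): highest percentile in the window (left, 0 for no summit) and number of summits (right). FZD7 at 50.8 against 92.0 and 85.3 stands out on the left, and FZD5 and TCF7 have fewer summits in shHNRNPU#1 within 20 kb on the right, of which FZD5 is less than 1.5-fold lower within 5 kb.

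HNRNPU itself was listed at every gene in both repeats of untransfected cells, as it was at 84.2% and 84.1% of all genes. A site with summits of both repeats within 250 bp was present at 7 of the 10, as at 70% of all genes. FZD7, NKD1 and SP5 lacked a site. Within 100 bp the number was 4 of 10 beside 57.3% of all genes, since the paired summits of FZD5, AXIN2 and DKK1 lay farther apart, and within 500 bp it was 8 beside 74.2%, FZD7 being added. The authors' joint list of HNRNPU intervals of 400 bp touched all 10 windows, as it did 88.2% of all gene windows, from 1 interval each at FZD5 and DKK1 to 14 at TCF7L2. The 20 sites comprised 7 at TCF7L1, 4 at LEF1, 3 each at TCF7 and TCF7L2, and 1 each at FZD5, AXIN2 and DKK1. Of the 20, 17 had an H3K4me1 summit within 500 bp in all 6 lists, as did 66% of the 17226 HNRNPU sites of the genome, and none of the 20 was without it in every list, beside 5.94%. H3K27ac was within 500 bp in all 6 lists at 5 of the 20 sites and in no list at 5, beside 32.8% and 14.5% over the genome. POLIIS2P was near 16 of the 20 in all 3 lists, beside 64.2%, and none of the 20 was without it in every list, beside 15.6%. The sites without H3K27ac were those near the listed starts of DKK1 and LEF1, a site of TCF7L1 at base 85135363, the TCF7 site at the end of VDAC1 and a further LEF1 site. That further site lay 74 bp from the higher-coordinate end of LEF1, the end at which this minus-strand gene begins. An end of LOC124900752 was within 1 kb of it.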

How the data were processed

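Summits of CUT&Tag peaks were analysed in 17 libraries of H1 cells. Per the labels, processing by the authors used cutadapt, Bowtie2, SAMtools, MACS2 and deepTools with build hg38; versions and control libraries are not given in the sources used here, and the listed paper describes other cells. The score deposited for each summit was read as −log10 of a p-value or q-value, with a lowest value of 2.00 to 2.01 in histone lists and 1.30 in the others. The authors also deposited a joint list of HNRNPU intervals whose score is 0 throughout, used for positions only. Peaks were taken as called per library.

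Groups follow the sample titles, except that the antibody of the 4 shLUC histone lists follows the peak names. Gene spans came from RefSeq (GRCh38.p14) and all coordinates count from 1. Percentiles are within list because depth is unknown, and they were not centred between lists. Strengths of all genes with a summit in all 6 lists were fitted with limma 3.58.1 in R 4.3.3. The test was moderated, with Benjamini-Hochberg adjustment over all genes and a threshold of 0.05. Single values were tested with exact permutation tests in Python 3.11.15. The limma fit was also run on simulated data. The changes planted there exceeded the differences at the members by peak name, so smaller changes were not tried. HNRNPU sites were repeat 1 summits with a repeat 2 summit within 250 bp. Alternatives varied antibody assignment, window, missing values, list length, centring, score scale, repeat block, shRNA and left-out library. All 10 members were named, as were neighbours with an end within 1 kb of a described summit or with a body that holds it. The members, gene lists and tests were chosen with earlier results of these data known.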

Additional observations from a re-analysis of the deposited data

Results flagged for a closer look

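By percentile, TCF7L1 H3K27ac had a library far from the other libraries of its group. The highest percentile was 93.1 in shHNRNPU#1 repeat 1 and 98.4 to 98.7 in the other 3 shHNRNPU libraries, so that the gap took up 0.945 of the range, above the critical value of Dixon's test for 4 values. Of 18 groups of 4 examined this was the only such case, and chance gives it in about 5% of groups. By rank, from which the limma strengths were taken, this library stood at 3572 and the other 3 at 530, 1221 and 1139. Dixon's test was not run on ranks. The H3K27ac stretch in the TCF7L1 body that was strongest in the other 3 libraries had no summit in this library. Without it the limma difference at TCF7L1 was 2.36 (adjusted p = 0.596) in place of 1.84 (adjusted p = 0.73, Benjamini-Hochberg).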

How the results depend on the processing

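The number of members called in limma remained 0 for both marks under all alternatives but the assignment of shLUC antibodies by title, which gave 4 for H3K4me1 and 3 for H3K27ac. Genes called over the genome, 4 for H3K4me1 and 1 for H3K27ac, became 8486 and 6274 by title. For H3K4me1 they became 12 with the 20000 strongest summits, 0 with quantile-normalised scores, 76 with shHNRNPU#1 alone, 1 with shHNRNPU#2 alone and 0 to 17 leaving out a library (17 without shHNRNPU#2 repeat 1, 0 without either shLUC library, 1 without each of the other 3). For H3K27ac they became 3 with the gene body alone, 0 with missing ranks filled, 0 with quantile-normalised scores, 0 with shHNRNPU#1 alone and 0 to 1 leaving out a library (0 without either shLUC or either shHNRNPU#2 library). The cause was not tested.

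The direction of H3K4me1 differences reversed by title at FZD5 (2.50), FZD7 (1.09), TCF7 (-0.97), TCF7L1 (6.71), LEF1 (4.04) and AXIN2 (-0.22). FZD7 H3K4me1, at -0.03, also reversed with a 5 kb window (0.12), without centring (0.01) and with shHNRNPU#1 alone (0.19). Leaving out a library moved H3K4me1 at FZD7 from -0.31 to 0.10, at TCF7 from -0.37 to 1.43, at LEF1 from -0.30 to 0.013 and at DKK1 from -0.015 to 0.33. H3K27ac reversed by title at FZD7 (-1.04), TCF7 (1.23), TCF7L1 (-6.48), TCF7L2 (-5.23) and LEF1 (-3.72). It reversed with shHNRNPU#1 alone at TCF7 (0.19), with shHNRNPU#2 alone at TCF7L2 (-0.17) and with a 5 kb window at AXIN2 (0.002). Leaving out a library moved H3K27ac at FZD7 from -0.60 to 1.11, at TCF7 from -0.94 to 0.76, at TCF7L2 from -0.26 to 1.04, at LEF1 from -0.03 to 1.32 and at NKD1 from -1.78 to 0.87. TCF7L1 kept its direction when any library was left out, with -2.19 to -0.67 for H3K4me1 and 1.44 to 2.36 for H3K27ac. Its H3K4me1 interval included 0 with the gene body alone, with missing ranks filled, without centring and with shHNRNPU#1 alone. It lay below 0 with a 5 kb window, the 20000 strongest summits, the repeat block and shHNRNPU#2 alone. On quantile-normalised log2 scores, another scale, the TCF7L1 difference was -0.197 (interval -0.645 to 0.252) for H3K4me1 and 0.669 (0.019 to 1.319) for H3K27ac.

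Members whose groups did not overlap, 0 in all 4 counts, became 6 above for H3K4me1 and 7 below for H3K27ac by title, beside 38.1% and 42.1% of genes. With a 5 kb window 2 were below for H3K4me1 (NKD1 and SP5, beside 7.17% of genes). Leaving out a library gave 0 to 2 below and 0 to 2 above for H3K4me1, and 0 to 3 below and 0 to 4 above for H3K27ac, with the highest counts in each case without a shLUC library. Gene strengths of repeats with the same number did not deviate together (correlations of -0.026 to 0.02), which cannot show whether those libraries were prepared together. The repeat as a block left the limma counts at 4 and 1 genes and 0 members, and within repeats 3 members were below for H3K4me1 (TCF7L1, NKD1 and SP5, beside 11.7% of genes), and 1 below and 1 above for H3K27ac (beside 16.2% and 3.48%). POLIIS2P counts were 2 below without either shLUC library, FZD7 with DKK1 or with AXIN2, and 0 to 1 above (NKD1). Counted by summits they were 2 below and 1 above, and with 5 kb flanks 1 and 0. HNRNPU sites of both repeats, at 7 members and 70% of genes, were found at 4 members within 100 bp (57.3%), 8 within 500 bp (74.2%), 6 with a 5 kb window (58.8%) and 7 among the 20000 strongest summits (60.2%), and the joint intervals touched 10 (88.2%). Unknown depth, list lengths that differ within a mark and 2 control libraries limit what these lists can resolve.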

Other observations

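For each member, the gene on another chromosome with the most similar highest percentiles over the 17 libraries was sought, by the root mean square difference in percentile points. TCF7L1 was nearest to UBTD1 (1.61 points), TCF7 to RRBP1 (2.60), TCF7L2 to EXOSC2 (2.94), AXIN2 to RAP2C (4.79), FZD5 to ANGEL1 (5.45), SP5 to LOC128092250 (5.86) and LEF1 to FAM107B (5.88). DKK1 (ARHGEF38, 9.29), FZD7 (FBXO43, 11) and NKD1 (PRKD1, 12.2) had no gene as near. These are descriptions of 17 values from shared libraries.

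Several summits fell on the same base in libraries of different antibodies. In TCF7 base 134140901 was the summit of all 3 POLIIS2P libraries, of 2 H3K27ac libraries and of 1 H3K4me1 library.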
